A study of Mus musculus with 2 samples.

Results

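Htr2c is an X-linked gene for a G protein-coupled serotonin receptor, and its introns carry the microRNA genes Mir764, Mir1912, Mir1264, Mir1298 and Mir448. These 5 genes, of 1973 microRNA gene rows in all, were chosen by their position in Htr2c, with counts of the same libraries already known, so their levels are given as a description and without a test. They were measured in hindbrain of B6NCrl mouse embryos at embryonic day 13.5, healthy and untreated, with male and female tissue pooled. The 1 group has 2 libraries of RNA shorter than 30 nt, replicate 2 and replicate 1, which carry the same donor identifier and different biosample identifiers. Whether they came from separate litters is not given in the sources used here, so part of their spread may be technical.

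A microRNA is cut from a hairpin in a longer transcript and guides Argonaute proteins to messenger RNAs through its seed, the bases near its 5′ end that pair with the target. A microRNA in an intron is usually transcribed together with its host gene. Htr2c messenger RNA is known for its very high level in the epithelium of the choroid plexus, the tissue that secretes cerebrospinal fluid and grows from the roof of the hindbrain, and is also found in groups of neurons. The receptor's own transcript was not measured in these libraries of short RNA.

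The mature sequences are shown because they identify what was counted and whether reads of one gene could be taken for those of another. They come from RefSeq on GRCm38.p6, 5′ to 3′, with the seed (bases 2 to 8) in capitals. All 5 genes matched, with 8 mature sequences.
miR-1298-5p: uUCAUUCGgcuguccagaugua
miR-1298-3p: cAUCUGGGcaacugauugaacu
miR-448-5p: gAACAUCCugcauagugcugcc
miR-448-3p: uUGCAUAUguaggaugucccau
miR-1264-3p: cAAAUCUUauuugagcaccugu
miR-1912-3p: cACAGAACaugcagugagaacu
miR-764-5p: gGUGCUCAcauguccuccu
miR-764-3p: aGGAGGCCauaguggcaacugu

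No seed occurred more than once, with 8 different seeds among the 8 sequences, so the genes form a group by place in the genome and not by a shared seed. None of the RefSeq sequences of the 5 genes had a stretch of 20 nt in common with those of another microRNA gene in the sequence table used, a comparison made on hairpin and mature sequences and, for Mir1264, on the mature sequence. Outside the group, miR-153-3p of the neuronal gene Mir153, in an intron of Ptprn2 on chromosome 12, matched miR-448-3p in bases 2 to 7 and not in base 8, as the next line shows.
miR-153-3p: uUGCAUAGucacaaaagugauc

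Mir153 had 1451 CPM in replicate 2, against 1707 CPM in replicate 1, in CPM, counts rescaled so that all gene rows of a library sum to 1000000. The Mir153 row stood above that of Mir448 in both libraries. Gene rows do not separate the arms of a hairpin, so levels of the matching mature sequences are not known. A whole seed was matched by Mir7062, whose miR-7062-5p matched miR-764-3p in bases 2 to 8, with 6 counts in replicate 2 and 3 in replicate 1. Mir499, whose 3p arm matched miR-448-5p in bases 2 to 7, had 17 and 9 counts in replicates 2 and 1. Mir6335, which matched miR-448-3p in bases 2 to 7, had 0 counts in both libraries, and miR-12187-3p, which matched miR-1298-5p in bases 2 to 7, was not matched to a gene row by its symbol.

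All 5 genes lie on the + strand of chromosome X, the strand of Htr2c (ENSMUSG00000041380.13, chrX:146962513-147197277, GRCm38), and none overlaps an exon of any of its 7 annotated transcripts. Mir764 (ENSMUSG00000076458.1) lies at chrX:147002259-147002366, Mir1912 (ENSMUSG00000093039.1) at chrX:147009441-147009527 and Mir1264 (ENSMUSG00000093122.1) at chrX:147010601-147010686. Mir1298 (ENSMUSG00000080331.1) lies at chrX:147064905-147065002 and Mir448 (ENSMUSG00000065450.1) at chrX:147158210-147158321. The first 4 share an intron of 90779 nt, which is intron 2 in 5 of the transcripts, and Mir448 lies in an intron of 93522 nt further downstream, which is intron 4 in 3 of them. Mir1912 and Mir1264 are 1073 bases apart, while 54218 bases separate Mir1264 from Mir1298 and 93207 bases separate Mir1298 from Mir448.

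**Figure D1:**
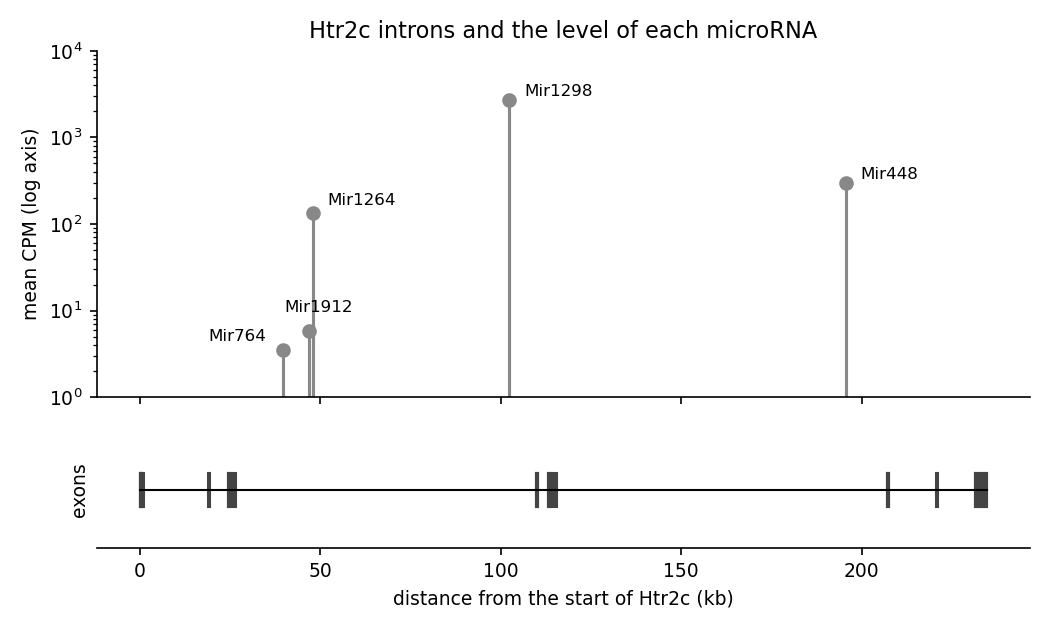
Mean CPM of each microRNA gene (log axis, dots, mean of both libraries) against its distance in kb from the start of Htr2c. Boxes under the plot are exons of all annotated Htr2c transcripts, with short exons widened to be visible. The highest gene, Mir1298 at 2675 CPM, lies in the same intron as the lowest, Mir764 at 3.55 CPM.

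Of the group, 4 of 5 genes were detected, meaning at least 10 counts in both libraries, a level that 18% of all gene rows reached. Mir764 missed it with 23 counts in replicate 2 and 6 in replicate 1. Mir1912 lay just inside with 33 counts in replicate 2 and 13 in replicate 1. The group was therefore present in this tissue mainly through Mir1298, Mir448 and Mir1264.

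Mir1298, whose human counterpart has been studied for its effect on the growth of tumour cells, was the most abundant. It had 15175 counts or 3366 CPM in replicate 2, against 5962 counts or 1983 CPM in replicate 1, a mean of 2675 ± 978 CPM (SD, n = 2), which placed it 64th in level among the 356 detected genes. Exact Poisson 95% intervals were 3313 to 3420 CPM in replicate 2 and 1933 to 2034 CPM in replicate 1, so counting error was small beside the gap between the libraries. These intervals cover counting error only. No molecular identifiers are named, so reads copied from the same molecule may be counted separately and the intervals may be too narrow. In bulk tissue, fewer cells of a type and less RNA per cell cannot be told apart.

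Mir448, linked in earlier work to fat cell differentiation, was the next highest. It had 1593 counts or 353 CPM in replicate 2, against 729 counts or 242 CPM in replicate 1, a mean of 298 ± 78.4 CPM (SD, n = 2), rank 151. Mir1264 had 784 counts or 174 CPM in replicate 2, against 277 counts or 92.1 CPM in replicate 1, a mean of 133 ± 57.8 CPM, rank 189. Mir448 thus stood 2.03-fold above Mir1264 in replicate 2 and 2.63-fold above it in replicate 1, and their counting intervals did not overlap in either library.

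Mir1912 had 7.32 CPM in replicate 2, against 4.32 CPM in replicate 1, a mean of 5.82 ± 2.12 CPM (SD, n = 2). Mir764, studied elsewhere for a part in bone cell differentiation, had 5.10 CPM in replicate 2, against 2.00 CPM in replicate 1, a mean of 3.55 ± 2.20 CPM. The order of these lowest genes was not resolved, because their Poisson intervals overlapped in replicate 2 (5.04 to 10.3 CPM for Mir1912 and 3.23 to 7.66 CPM for Mir764) and in replicate 1 (2.30 to 7.39 CPM and 0.732 to 4.34 CPM). Mir1912 was 23.8-fold below Mir1264 in replicate 2 and 21.3-fold below it in replicate 1, although the hairpins are close neighbours in the intron.

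**Figure D2:**
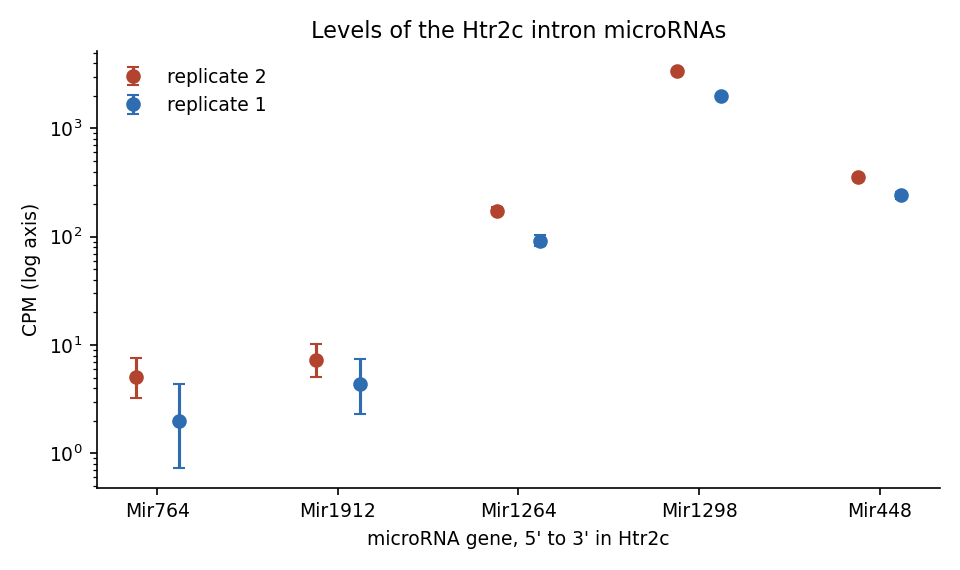
CPM (log axis) of the 5 genes in replicate 2 (red, left) and replicate 1 (blue, right), in their order along Htr2c, with exact Poisson 95% intervals as bars. In each of the 5 genes replicate 2 lies above replicate 1, and the levels run from 5.10 to 3366 CPM in replicate 2 and from 2.00 to 1983 CPM in replicate 1.

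The whole group summed to 17608 counts or 3906 CPM in replicate 2, against 6987 counts or 2324 CPM in replicate 1, a mean of 3115 ± 1119 CPM (SD, n = 2) or 0.311% of the counts in gene rows. Mir1298 supplied 86.2% of that sum in replicate 2 (exact binomial 95% interval 85.7 to 86.7%) and 85.3% in replicate 1 (84.5 to 86.2%). Mir448 supplied 9.05% in replicate 2 (8.63 to 9.48%) and 10.4% in replicate 1 (9.73 to 11.2%), intervals that did not overlap. Mir1264 supplied 4.45% in replicate 2 (4.15 to 4.77%) and 3.96% in replicate 1 (3.52 to 4.45%). Mir1912 supplied 0.187% in replicate 2 and 0.186% in replicate 1, and Mir764 0.131% in replicate 2 (0.0828 to 0.196%) and 0.0859% in replicate 1 (0.0315 to 0.187%). Of the 5 shares, that of Mir448 was lower in replicate 2 by more than counting error, and the intervals of the other 4 overlapped between the libraries.

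The RefSeq hairpins of the highest and the lowest gene are shown for comparison of genes from the same intron, with the mature arms in capitals.
Mir1298 hairpin: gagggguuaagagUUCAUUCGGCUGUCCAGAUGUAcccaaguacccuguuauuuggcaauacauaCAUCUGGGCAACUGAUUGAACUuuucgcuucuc
Mir764 hairpin: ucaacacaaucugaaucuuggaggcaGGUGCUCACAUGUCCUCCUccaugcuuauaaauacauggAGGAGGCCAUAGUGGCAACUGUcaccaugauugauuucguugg

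The Mir1298 hairpin has 98 nt and the Mir764 hairpin 108 nt. Their predicted folding energies were -0.472 kcal/mol per nt for Mir1298 and -0.459 kcal/mol per nt for Mir764 (RNAfold). The Mir1912 hairpin of 87 nt had -0.472 kcal/mol per nt and the Mir448 hairpin of 112 nt had -0.451 kcal/mol per nt. The median of 1005 RefSeq mouse hairpins, those of chromosome 18 left out, was -0.406 kcal/mol per nt, with the middle of the distribution between -0.465 and -0.342. Levels of different microRNAs also carry differences in how well each sequence is ligated and amplified, which these files do not measure.

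All 5 genes had more CPM in replicate 2 than in replicate 1. Over all 356 detected genes the median log2 ratio of replicate 2 over replicate 1 was 0.01, so either direction was common. The log2 ratio of replicate 2 over replicate 1, with trimmed-mean (TMM) library sizes, was 0.75 for Mir1298 (exact counting interval 0.71 to 0.79) and 0.90 for Mir1264 (0.70 to 1.11). It was 0.53 for Mir448 (0.40 to 0.66). The ratio of Mir1912 was 0.75 with an interval of -0.22 to 1.80, and that of Mir764, which was not detected, was 1.34 with an interval of 0.00 to 2.93, so neither was well measured. For the summed counts it was 0.74 (0.70 to 0.78), a 1.67-fold higher level in replicate 2.

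Among the 4 detected genes, 3 had an interval wholly above 0, as did 25.3% of all 356 detected genes, and 3 were beyond 1.5-fold with replicate 2 higher, as were 4.21% of detected genes. None of the 4 had an interval below 0, against 25.3% of detected genes, and none was beyond 1.5-fold with replicate 2 lower, against 5.62%. In the order of log2 ratios over all detected genes, Mir1264 stood 5th, Mir1298 8th, Mir1912 9th and Mir448 17th. The median log2 ratio was 0.75 over the 4 and 0.01 over all detected genes, whose SD was 0.39 and whose common biological coefficient of variation was 0.141 by edgeR. The ratio compares these 2 libraries and not conditions. The genes share a host, so they are not independent.

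**Figure D3:**
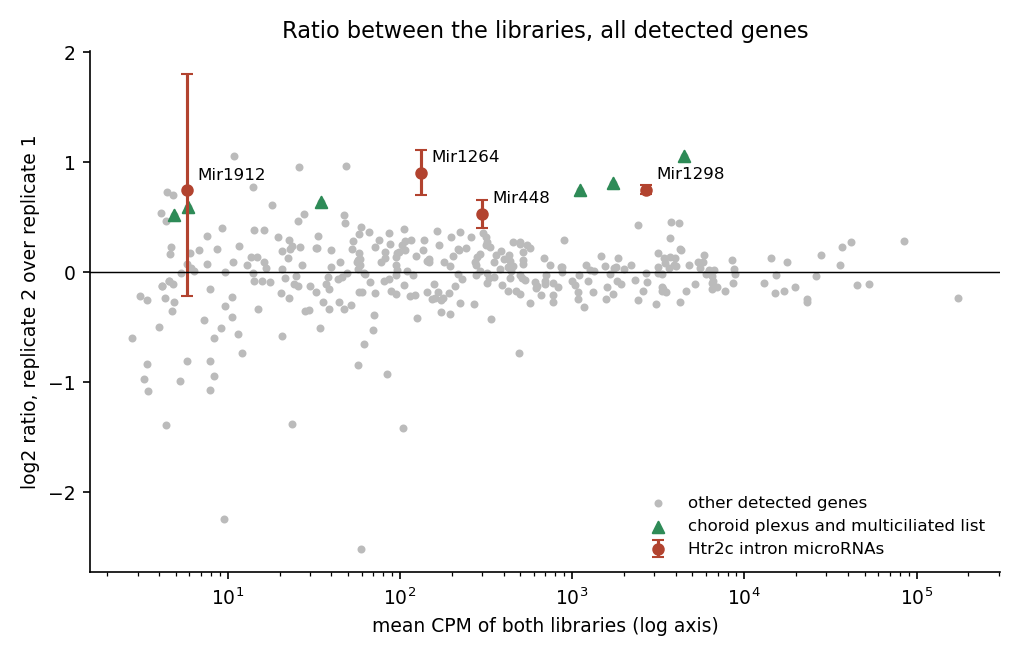
Log2 ratio of replicate 2 over replicate 1 against mean CPM (log axis) for the 356 detected genes (grey). The detected Htr2c intron microRNAs (red, bars are exact 95% counting intervals) run from 0.53 to 0.90, and the 6 detected genes of the choroid plexus and multiciliated list (green triangles) from 0.52 to 1.05.

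MicroRNAs known from choroid plexus epithelium and from multiciliated cells were also higher in replicate 2. Of 7 such genes on a list chosen with results of these libraries known, 6 were detected, as were 18% of all gene rows, and none was at 0. All 6 had a log2 ratio above 0, where the median over all detected genes was 0.01. Of these, 4 had an interval wholly above 0, as did 25.3% of all detected genes, and 5 were beyond 1.5-fold with replicate 2 higher, as were 4.21%. The intervals of Mir449c (-0.35 to 1.62), which is among the 5, and of Mir211 (-0.52 to 1.64) spanned 0. The list summed to 9694 CPM in replicate 2, against 4991 CPM in replicate 1, a log2 ratio of 0.94 (0.92 to 0.97). Mir449a alone supplied 27154 of the list's 43701 counts in replicate 2 and 8657 of 15007 in replicate 1. Mir204, abundant in choroid plexus and carried in an intron of Trpm3, had 2216 CPM in replicate 2, against 1252 CPM in replicate 1 (log2 ratio 0.81). Mir449a, of multiciliated cells, had 6023 CPM in replicate 2, against 2879 CPM in replicate 1 (log2 ratio 1.05). Mir211, a relative of Mir204, had 5.77 CPM in replicate 2, against 3.99 CPM in replicate 1. The part of choroid plexus or multiciliated cells in the ratio of the Htr2c intron microRNAs was not tested.

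The other lists did not show a ratio of this size in the same direction. Counts of detected genes below stand beside the 18% of all gene rows that were detected. The 20 measured genes of the neuronal list, 16 of them detected, summed to 13273 CPM in replicate 2, against 13110 CPM in replicate 1, a log2 ratio of 0.00 (-0.01 to 0.02), with 5 of the 16 intervals above 0 and 4 below, where 25.3% of all detected genes lay above and 25.3% below. The measured neuronal genes not detected were Mir124a-1, Mir124a-2, Mir124a-3 and Mir9-2, with at most 23 counts in replicate 2 and 9 in replicate 1. Multimapping reads are not in these rows, so the ratio says little about neuronal microRNAs with near-identical copies. Among the detected neuronal genes Mir137, which regulates how neurons differentiate, had 6281 CPM in replicate 2, against 6132 CPM in replicate 1. The 115 other microRNA genes of chromosome X, 34 of them detected, summed to 29954 CPM in replicate 2, against 29375 CPM in replicate 1, with a log2 ratio of 0.02 (0.00 to 0.03). Of those 34, 10 had an interval above 0 and 6 below, beside the same 25.3% on each side. Mir504, in an intron of Fgf13, was beyond 1.5-fold with replicate 2 higher (4.21% of all detected genes were), at 14.6 CPM in replicate 2, against 6.98 CPM in replicate 1.

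MicroRNAs reported to act on other genes of the serotonin system were compared as the nearest pathway. All 8 were detected, as were 18% of all gene rows. Among them were the mir-135 genes, known to repress the serotonin transporter and the Htr1a receptor, and Mir96, known to repress Htr1b. The list also holds the mir-15/16 genes, of which mir-16 is known to repress the transporter. The 8 genes summed to 13998 CPM in replicate 2, against 14414 CPM in replicate 1, a log2 ratio of -0.06 (-0.07 to -0.04). By interval, 4 of 8 were above 0 and 3 below, where 25.3% of all detected genes lay above and 25.3% below. Mir135b, the highest row among the mir-135 genes, had 6681 CPM in replicate 2, against 7253 CPM in replicate 1, a level above Mir1298 in both libraries. Multimapping reads are not in these rows, so the order of genes with near-identical copies is uncertain.

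**Figure D4:**
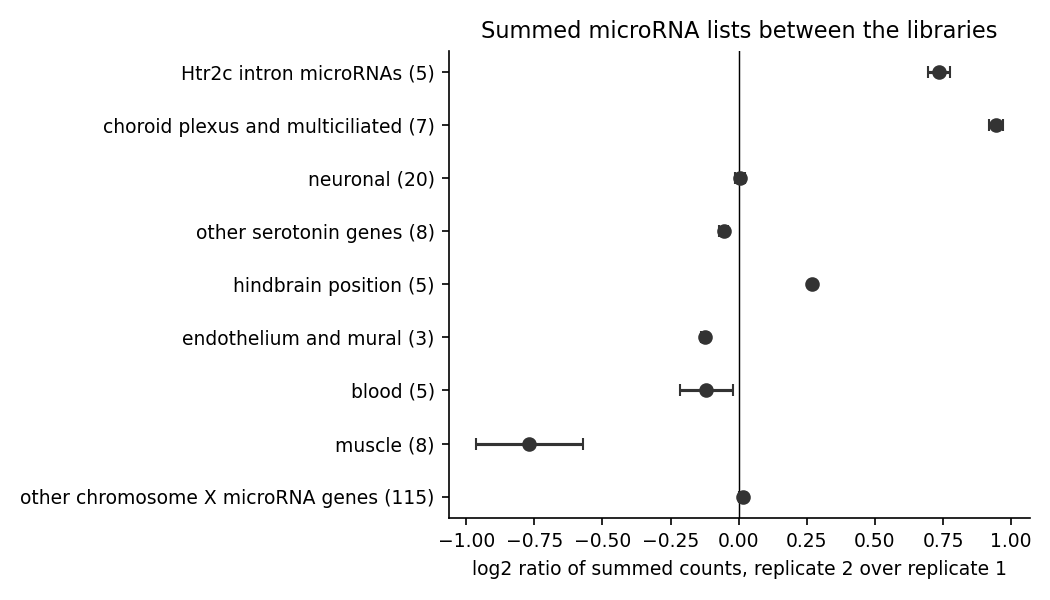
Log2 ratio of summed counts, replicate 2 over replicate 1, for each list with its number of measured genes in brackets; bars are exact 95% counting intervals. The Htr2c intron microRNAs at 0.74 and the choroid plexus and multiciliated list at 0.94 lie highest, the muscle list at -0.77 lowest.

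Genes of most similar level were found as the nearest detected genes by distance of log2 CPM over the 2 libraries. For Mir1298 they were Mir615, in an intron of Hoxc5, with 2787 CPM in replicate 2, against 2053 CPM in replicate 1 (distance 0.28), and Mir484 (0.54). For Mir448 they were Mirlet7c-1 (0.14) and Mir210 (0.20), and for Mir1264 they were Mir505 of chromosome X (0.47) and Mir329 (0.48). For Mir1912 they were Mir449c (0.12), with 7.10 CPM in replicate 2, against 4.66 CPM in replicate 1, and Mir211 (0.36), both on the choroid plexus and multiciliated list. Counting error is wide at these levels, with 13 counts in replicate 1 for Mir1912, 14 for Mir449c and 12 for Mir211. None of the neighbours of Mir1298, Mir448 and Mir1264 was on that list.

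With no other tissue in the study, the hindbrain label could be set only beside levels of microRNAs from Hox clusters. Of a chosen list of 5 such genes, which leaves out Mir615, 3 were detected, as were 18% of all gene rows. Mir10a, from the HoxB cluster, had 92739 CPM in replicate 2, against 75367 CPM in replicate 1. Mir196b had 34.4 CPM in replicate 2, against 17.6 CPM in replicate 1. Mir196a-1 (1 count in replicate 2, 0 in replicate 1) and Mir196a-2 (7 in replicate 2, 2 in replicate 1) were near 0. Multimapping reads are not in gene rows, so a row near 0 does not show that its mature microRNA was absent. Gene rows held 4508244 counts in replicate 2 and 3006571 in replicate 1, and multimapping reads were 34.5% and 33.9% of all reads there. The summed log2 ratio was -0.12 for the endothelium and mural list and 0.27 for the hindbrain position list. It was -0.12 for the blood list, in which Mir451a had -1.42 and 4 of 5 genes had a ratio above 0 (median over all detected genes 0.01). It was -0.77 for the muscle list, in which Mir208b had -2.51, Mir208a -2.25 and Mir206 0.96.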

How the data were processed

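Short RNA of 2 hindbrain libraries was sequenced and the authors deposited unnormalised read counts for each microRNA gene, on mm10 with the GENCODE M4 annotation, per the README notes that accompany them. How reads were trimmed, aligned and counted is not given in the sources used here. The third column, which holds nearly all gene counts (the opposite-strand column held 1.90% of either-strand counts in replicate 2 and 1.88% in replicate 1), was used. Multimapping, unmapped and unassigned reads, 52.5% of the reads in replicate 2 and 51.0% in replicate 1, stayed out of library sizes. Names, coordinates and hosts came from GENCODE M21 on GRCm38 (1894 of 1973 identifiers matched) and sequences from RefSeq on GRCm38.p6. TMM sizes from the detected genes and the common variation came from edgeR 4.0.16, alternative size factors from DESeq2 1.42.0, intervals from scipy 1.17.1 and folding energies from RNAfold 2.7.2. The quasi-likelihood test needs groups to compare, so none was run and no p-value is given. The interval calculation was tested on simulated Poisson counts with no further spread between libraries, so that test bears on counting error only. Members and lists were chosen with earlier results of these data known. Named genes are the 5 members, genes of the lists, the 2 nearest detected genes in level for each detected member, and genes matching a member's seed in bases 2 to 8 or 2 to 7; other genes in the closing section were chosen after their values were seen. Alternatives were the count column, the denominator, the library scaling, the detection minimum, leaving out a library and leaving out the most abundant member.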

Additional observations from a re-analysis of the deposited data

How the results depend on the processing

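No log2 ratio of the 5 genes or their sum changed sign under the alternatives run. Over all reads in place of gene rows the summed level was 1497 CPM, since that denominator also holds multimapping and unmapped reads, and the levels of all 5 genes fell with it, Mir764 to 1.70 CPM, a fall within its SD between libraries. Without Mir1298 the log2 ratio of the sum was 0.65. With 1 library left out, which says nothing about stability with 2 libraries, the sum ranged from 2324 to 3906 CPM, and the number of detected genes from 4 to 5. It was 5 with a minimum of 5 counts and 3 with a minimum of 20. Under library totals, DESeq2 size factors, unfiltered TMM and either-strand counts the log2 ratio of the sum lay between 0.71 and 0.75. The interval of Mir764 reached below 0 under DESeq2 size factors, unfiltered TMM and either-strand counts, so its direction rests on few reads. Leaving out genes that share a 20-nt stretch removed none. No paired analysis was possible because the study has a single group. Depth limits Mir764 and Mir1912, at 6 and 13 counts in replicate 1.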

Other observations

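Values in this part were chosen after the data were seen and carry no test. Further microRNA rows lie inside Htr2c on its strand. Gm22650 had 6 counts in replicate 2 and 1 in replicate 1, and Gm24627 had 0 in both, which allows up to 3 counts in each library. The opposite-strand column held 0 counts in both libraries for each of Mir764, Mir1912, Mir1264, Mir1298 and Mir448.

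Htr2c was 1 of 11 genes that contained at least 3 detected microRNA genes on their own strand. Its detected microRNAs spanned a 459-fold range of mean CPM, the third widest of the 11, behind Mir17hg at 3426-fold and Mir99ahg at 575-fold. The median log2 ratio of replicate 2 over replicate 1 among its detected microRNAs was 0.75, and the lowest was 0.53. In the other 10 hosts the median ran from -0.93 for Ttll10, which contains Mir200a and Mir429, to 0.11 for Mcm7, which contains Mir93 and Mir25. The highest single ratio in those hosts was 0.47, in Sfmbt2. Some of these hairpins have near-identical copies elsewhere, so their counts are uncertain.

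A cut in the log2 ratios of detected genes was set at rank 17, that of Mir448, the lowest of the detected Htr2c intron microRNAs. It therefore holds all 4 of them by construction. The cut, which held 17 of the 356 detected genes, also held Mir449a, Mir204, Mir34c, Mir34b and Mir449c of the choroid plexus and multiciliated list. That list was chosen with results of these libraries known. Mir504, Mir5113, Gm23134, Mir1947, Mir193b and Mir1247 were there as well. Among the rest were the muscle gene Mir206 at 0.96, with 64.1 CPM in replicate 2 and 32.6 CPM in replicate 1, whose fellow muscle genes Mir208a and Mir208b went the other way, at -2.25 and -2.51, and Mir196b of the HoxA cluster at 0.95, with 34.4 CPM in replicate 2 and 17.6 CPM in replicate 1.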
